A study of Mus musculus with 4 samples.

Results

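The genes described here encode the enzymes that modify foreign compounds and reactive aldehydes: cytochromes P450, flavin-containing monooxygenases (Fmo), aldehyde dehydrogenases (Aldh), carboxylesterases (Ces), glutathione S-transferases (Gst and Mgst), UDP-glucuronosyltransferases (Ugt) and sulfotransferases (Sult). Members were chosen by gene symbol, by being annotated as protein-coding and by a level of 50 or more normalized counts in at least 1 of 4 libraries. Of 211 protein-coding genes whose symbol matched, 96 met the level, 31 were above 0 but under 50 in every library and 84 were at 0 in every library. The table holds 48709 genes in all, of which 22018 are protein-coding. Because the level chose the members, the fact that they were detected is not a finding. The members just inside the limit were Cyp2d22, whose highest level was 60, and Ces2e, at 70. Those just outside were Cyp4f15, at 45, and Cyp2d26, at 42.

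The libraries came from C57BL/6 mice with a Tas2r143-CreERT2 transgene and the Cre reporter Rosa26flox-mT-stop-flox-mG, in which the promoter of the bitter taste receptor gene Tas2r143, on a BAC, drives a tamoxifen-activated Cre. All cells of these mice carry the red protein Tomato until Cre switches them, and their progeny, to EGFP. RNA-seq used 1 of the transgenic lines, adult mice were given tamoxifen on 5 days, and cells were taken 5 days after the last injection. Each library pools cells of 3 mice. Cells that were EGFP-positive, and cells that were Tomato-positive, EpCAM-positive and EGFP-negative, were sorted from trachea and from stomach, with dead cells removed. EpCAM, a surface protein of epithelia, gated only the Tomato sort. The ages and sexes of the mice are not given in the sources used here. With 1 library per group, no difference has a replicate check and none was tested. A gene was called higher or lower when the ratio of 2 libraries was 4-fold or more on the log2(normalized count + 1) scale with 50 or more normalized counts in the higher library. The 95% intervals below are exact binomial intervals on estimated reads, and they cover counting error only, since amplified reads without molecular identifiers are not independent molecules.

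Each sample's title names one tissue and its tissue field the other, and every statement here follows the titles. The titles also match the column names. Following the tissue field would exchange the words trachea and stomach throughout. In the pair titled trachea, the Tomato library held club cell secretory transcripts such as Scgb1a1, at 59071, and the gastric pit cell gene Gkn1 was at 2. In the pair titled stomach, the Tomato library held Gkn1 at 468388 and Scgb1a1 at 0. Not every listed gene went with the titles. Lipf, listed for chief cells of the stomach, was at 53408 in tracheal and 0 in gastric Tomato. Aqp4, listed for parietal cells, was at 807 and 70. From the same 2 lists, Pgc (2 and 992416) and Atp4b (0 and 11629) went with the titles. The libraries summed to between 9979296 and 15433150 normalized counts and held an estimated 6200000 (trachea EGFP) to 18900000 (stomach Tomato) reads, so that the floor of 3 reads was worth 4.83 normalized counts in trachea EGFP and between 2.36 and 2.45 in the others. All 8 genes of a list for tuft cells, the chemosensory cells of both epithelia, were above 0 in both EGFP libraries, and the 7 that reached 50 in Tomato lay between 1011% and 18203% of their Tomato level in trachea and between 779% and 3869% in stomach. Other cell types were also present. Of 7 genes listed for club cells, 6 lay between 1.77% and 17.3% of their Tomato level in tracheal EGFP cells. The keratin Krt4 of this list was at 52247 in tracheal Tomato and 0 in EGFP, as the keratins Krt13 and Krt6a below also fell to 0. Its 0 is therefore not read as a 0 of club cells. In gastric EGFP cells 4 pit cell genes lay between 9.21% and 12.5% of the Tomato level, and the antibody transcript Igkc was at 530119 normalized counts. Chga, of hormone cells, was at 88713 in gastric Tomato and 0 in the other libraries. Summed over whole lists, tracheal Tomato and EGFP cells held 1103010 and 54472 normalized counts of the 7 genes listed for club cells, Krt4 included. They held 164404 and 2088 of 6 basal cell genes. Gastric Tomato and EGFP cells held 882574 and 105904 of 4 pit cell genes, 1083873 and 47021 of 5 chief cell genes (Lipf at 0 in both) and 258739 and 746 of 5 hormone-cell genes. Transcripts of other cells moved the same way: 5 fibroblast genes summed to 25197 and 478 in tracheal and 25057 and 254 in gastric Tomato and EGFP cells, and 4 myeloid genes to 35898 and 525 and to 7556 and 13. The fibroblast genes Col1a1 and Col1a2 and the myeloid genes C1qa and Csf1r were at 0 in tracheal EGFP cells. So did the sum of 4 genes listed for gastric squamous cells, at 25754 and 0 in trachea and 15639 and 1411 in stomach. The gastric sum was nearly all Sprr1a, at 15535 and 1411. Krt13 and Krt6a were at only 24 and 80 in gastric Tomato but at 14217 and 7831 in tracheal Tomato, and Lor was at 0 throughout. This list therefore does not mark gastric squamous cells in these libraries. By contrast, 4 plasma and B cell genes were higher in EGFP cells, at 963 and 17946 in trachea and 36930 and 682510 in stomach. A list of 7 ciliated cell genes was mixed, at 10633 and 2810 in trachea and 846 and 3797 in stomach. Within it, Dnah5 was at 1906 and 0 in tracheal Tomato and EGFP cells, but Rsph1 at 422 and 927. Foxj1 and Ccdc39 were at only 1 and 2 in tracheal Tomato. How far these cells set the levels below was not tested, and in sorted pools fewer cells of a type and less RNA per cell cannot be told apart.

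As background, metabolism of a foreign compound is commonly divided into a step that adds or uncovers a reactive group and a step that attaches a water-soluble group to it. Cytochromes P450 and Fmo enzymes insert oxygen, Ces enzymes split esters and amides, and Aldh enzymes oxidise aldehydes to acids. Gst, Ugt and Sult enzymes then attach glutathione, glucuronic acid or sulfate. In the airway, club cells are the classical site of P450 activity, and in the stomach the mucosa oxidises alcohol and aldehydes that arrive with food. P450 members of families 1 to 3 mostly act on foreign compounds, those of family 4 mostly on fatty acids, and many others on sterols, steroid hormones or vitamin D.

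Promoter sequences are shown for pairs of genes from the same genomic cluster whose levels parted between the sorts, as described below. They are the 250 bases before a RefSeq start site of GRCm38.p6, 5′ to 3′ on the strand of the gene. Of the 96 members, 72 matched an entry, with 87 promoter windows among 32851. Capitals mark the octamer ATGCAAAT, which was found on either strand in 1.6% of all windows and in 3.45% of member windows, or the core GCGTG of the element bound by the aryl hydrocarbon receptor, found in 28.2% of all windows and 21.8% of member windows. The antioxidant response core TGACNNNGC was in 10.2% and 6.9%. None of these overlaps another in the windows printed here. The first pair is Aldh1a1 (chr19:20601718-20601967, plus strand, at the second of 2 RefSeq starts, within an intron of the longer transcript) and Aldh1a7 (chr19:20727557-20727806, minus strand). Gstm1 (chr3:108017974-108018223) and Gstm7 (chr3:107931818-107932067) are both on the minus strand of the glutathione transferase cluster of chromosome 3. Other Gstm genes lie between them. Each is shown at the more upstream of 2 RefSeq starts. The window of the other Gstm7 start, not printed, held the antioxidant response core as TGACAAAGC.
Aldh1a1: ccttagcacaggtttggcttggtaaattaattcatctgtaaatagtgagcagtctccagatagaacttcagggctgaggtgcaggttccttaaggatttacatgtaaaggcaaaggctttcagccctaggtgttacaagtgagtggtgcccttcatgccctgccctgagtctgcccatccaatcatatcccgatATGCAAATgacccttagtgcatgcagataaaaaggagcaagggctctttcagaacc
Aldh1a7: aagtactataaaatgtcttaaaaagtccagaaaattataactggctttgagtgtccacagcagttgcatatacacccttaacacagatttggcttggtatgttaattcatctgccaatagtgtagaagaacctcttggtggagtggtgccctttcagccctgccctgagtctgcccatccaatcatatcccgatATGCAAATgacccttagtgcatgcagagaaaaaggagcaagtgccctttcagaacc
Gstm1: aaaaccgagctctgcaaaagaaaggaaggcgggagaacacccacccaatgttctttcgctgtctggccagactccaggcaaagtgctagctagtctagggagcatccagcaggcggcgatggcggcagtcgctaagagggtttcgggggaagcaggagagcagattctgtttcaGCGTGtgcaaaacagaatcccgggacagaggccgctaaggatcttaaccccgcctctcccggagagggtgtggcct
Gstm7: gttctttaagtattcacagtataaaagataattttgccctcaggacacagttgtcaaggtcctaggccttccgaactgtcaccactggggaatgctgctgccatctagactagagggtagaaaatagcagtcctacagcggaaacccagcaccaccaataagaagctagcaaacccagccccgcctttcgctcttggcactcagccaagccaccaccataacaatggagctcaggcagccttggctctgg
In the 100 bases next to the start, 94 were identical between Aldh1a1 and Aldh1a7, and both held the octamer at the same distance from it. Over the whole windows printed, 175 of 265 aligned columns (66%) were identical. A match describes the letters only.

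The 96 enzymes together made up 4.21% of the normalized counts of tracheal Tomato-positive cells, 0.483% of those of tracheal EGFP-positive cells, 0.976% in gastric Tomato-positive cells and 0.585% in gastric EGFP-positive cells. Without Cyp2f2, the P450 of club cells that activates naphthalene, the tracheal values were 1.94% and 0.393%. Members above 0 numbered 75 in tracheal Tomato, 53 in tracheal EGFP, 80 in gastric Tomato and 71 in gastric EGFP. The tracheal EGFP library therefore had both the smallest sum and the fewest members detected, at the smallest number of reads.

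**Figure D1:**
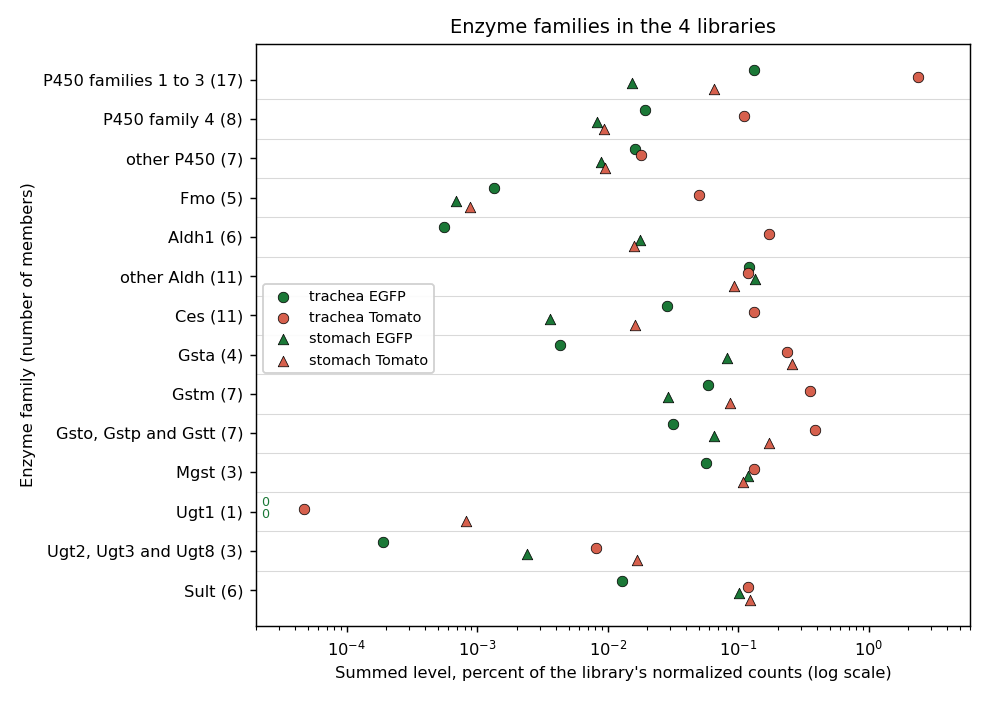
Summed level of each enzyme family (number of members in parentheses) in the 4 libraries, as a percentage of the library's normalized counts on a log scale. Circles are trachea and triangles stomach, green is EGFP and red is Tomato, each symbol is 1 library, and a written 0 stands for a sum of 0. P450 families 1 to 3 reached 2.37% in tracheal Tomato, 0.132% in tracheal EGFP, 0.0647% in gastric Tomato and 0.0154% in gastric EGFP, while Aldh outside family 1 lay between 0.0929% and 0.134% in all 4.

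Airway against gastric metabolism was compared in the Tomato-positive cells. Of 88 members at 50 or more in either library, 30 (34.1%) were called higher in trachea, where 19.4% of 10769 protein-coding genes were, and 27 (30.7%) higher in stomach, where 27.5% of genes were. The median log2(trachea/stomach) was -0.09 over members and -0.12 over all genes, so the members lay on both sides in similar numbers. Most families held members called on either side, such as 5 higher in trachea and 4 higher in stomach of 15 P450 members of families 1 to 3. Fmo members were called higher in trachea in 4 of 5 cases and in stomach in none, and Ces members in 6 and 3 of 10 cases. Gsta and Gstm members were higher in trachea in 1 of 11 cases and higher in stomach in 5.

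Among the oxygenases, Cyp2f2 (chr7:27119909-27133660) was at 337775 normalized counts in tracheal Tomato, 69 in gastric Tomato, 8937 in tracheal EGFP and 0 in gastric EGFP. Per kb of exon it took 92.3% of the summed P450 level of tracheal Tomato cells. Cyp4b1, which activates aromatic amines and furans, was at 13266 in tracheal Tomato, 304 in tracheal EGFP and 0 in both gastric libraries, at least 5419-fold higher in trachea than in stomach among Tomato cells. Cyp2a5, a coumarin and nicotine oxidase, was at 7344, 372, 0 and 1 in tracheal Tomato, tracheal EGFP, gastric Tomato and gastric EGFP. In both sorts these 3 genes were higher in trachea. Of the exon bases of Cyp2f2, 13.5% also belong to the overlapping gene Gm15883.

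The gastric Tomato cells expressed other P450 genes at lower levels. Cyp2c65, a relative of the arachidonic acid epoxygenases, was at 2832 normalized counts in gastric Tomato, 419 in gastric EGFP and 0 in both tracheal libraries. Per kb of exon it was the highest P450 of gastric Tomato cells and held 33.6% of their summed P450 level. Cyp2c44, another epoxygenase, was at 354 in gastric Tomato and at 0 elsewhere. Cyp2c55 (145) and Cyp2c70 (92) were likewise at 0 outside gastric Tomato, so that all 4 Cyp2c members were at 0 in both tracheal libraries. Cyp2s1, an extrahepatic P450, was at 3451 in gastric and 2288 in tracheal Tomato, and Cyp3a13, of the drug-oxidising family, at 1782 and 1309. Neither was called between tissues.

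The conjugating enzymes differed from member to member. Sult1c2, a phenol sulfotransferase, was at 14695 normalized counts in gastric Tomato, 11266 in gastric EGFP, 2 in tracheal EGFP and 0 in tracheal Tomato. Its neighbour Sult1c1 was at 559 in tracheal Tomato and 0 in the other libraries. Sult1d1, which acts on catecholamines, was at 16163 in tracheal Tomato and 1544 in gastric Tomato, a 10.5-fold difference (95% interval 9.99 to 11). Thus Sult members as a group summed to 0.118% and 0.122% of tracheal and gastric Tomato libraries, from different members. Among glutathione transferases, Gsta1 was at 9558 in gastric Tomato and 19 in tracheal Tomato, and Gstt1 at 2694 and 238. Of Gsta1's read-length windows, 84.7% also occur in other transcripts, and reads that fit several genes were discarded, so its level is uncertain. Gsta4, which conjugates the lipid peroxidation product 4-hydroxynonenal, was nearly as high in both, at 25358 in trachea and 27136 in stomach. Gsto1 was at 53815 and 20192, and Gstm2 at 16980 and 2306, of which the latter was called. Among esterases, Ces1d, a triacylglycerol hydrolase, was at 16644 in tracheal and 64 in gastric Tomato, Ces1h at 934 and 0, and Ces2c at 0 and 569.

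**Figure D2:**
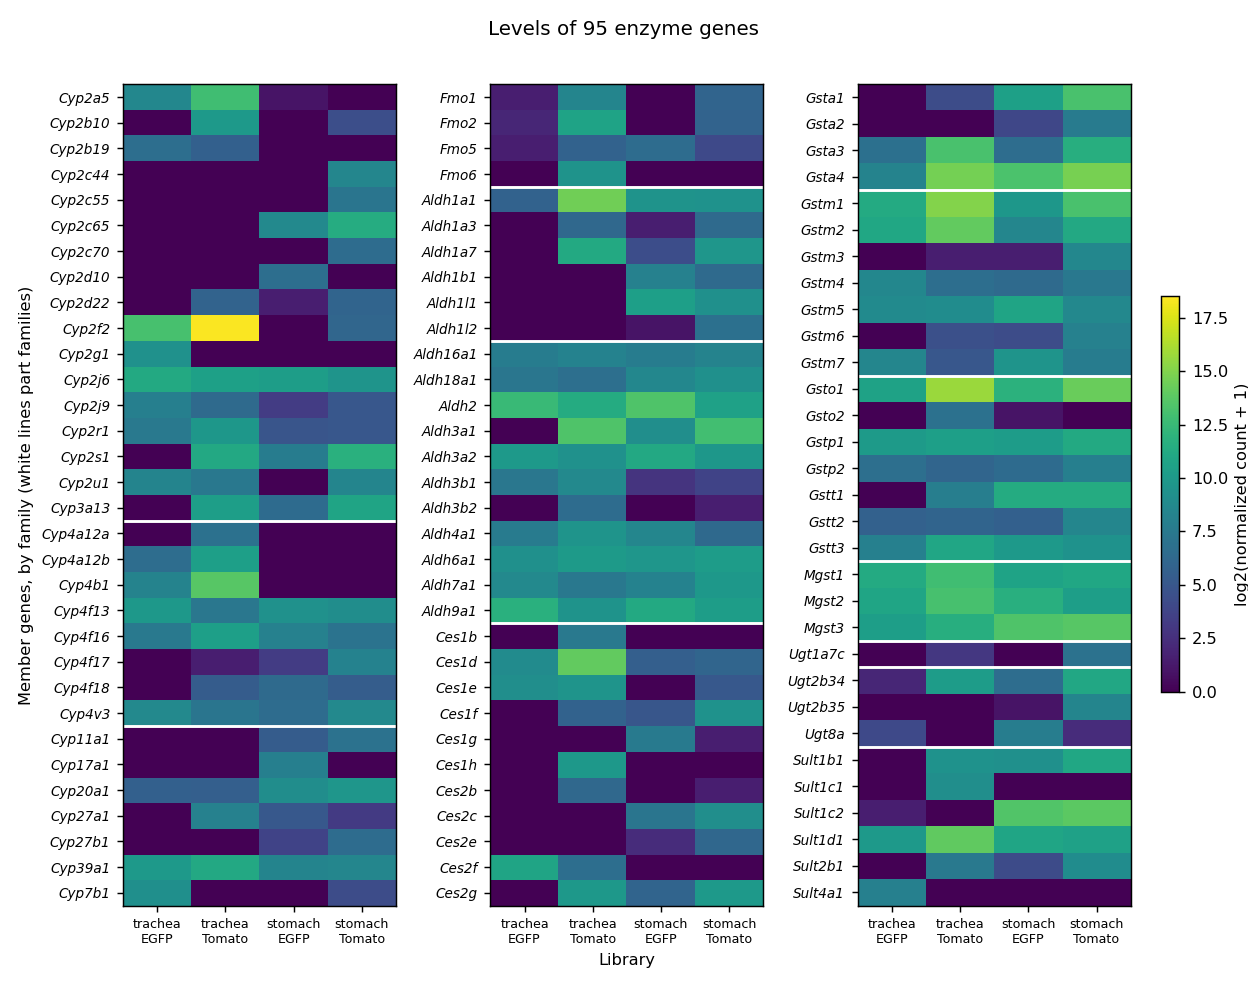
Level of 95 members in the 4 libraries as log2(normalized count + 1), with members grouped by family and white lines between families. Dark cells are at or near 0: of all 96 members, 43 were at 0 in tracheal EGFP, 21 in tracheal Tomato, 25 in gastric EGFP and 16 in gastric Tomato.

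Tracheal EGFP-positive cells held much less of most of these enzymes than Tomato-positive cells. Of 72 members at 50 or more in either library, 42 (58.3%) were called lower in EGFP, where 32.7% of 9808 protein-coding genes were, and 7 (9.72%) were called higher, where 23.4% were. The median log2(EGFP/Tomato) was -3.83 over members and -0.37 over all genes. All 5 Fmo members, both Gsta members tested, all 3 Aldh1 members tested and 7 of 12 P450 members of families 1 to 3 were lower. Outside family 1, 2 of 11 Aldh members were lower and 1 was higher.

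The members that tracheal EGFP cells lacked most clearly were those at 500 or more in Tomato cells and at or under the floor of 3 reads in EGFP cells. They were 12 of 41 (29.3%), beside 13.8% of 3679 protein-coding genes at that level. Aldh3a1, an enzyme known from the cornea that oxidises aromatic and lipid aldehydes, was at 10667 normalized counts in Tomato and 0 in EGFP, at least 2208-fold lower. Aldh1a7 was at 2407 and 0, Cyp2s1 at 2288 and 0, and Cyp3a13 at 1309 and 0. All 4 were thus undetected at an estimated 6200000 reads. The phenobarbital-inducible Cyp2b10 was at 1019 and 0, the lung monooxygenase Fmo2 at 1672 and 3, Fmo6 at 735 and 0, and the glucuronosyltransferase Ugt2b34 at 1196 and 3. Ces1h was at 934 and 0, Ces2g at 915 and 0, Sult1b1, a sulfotransferase of thyroid hormone, at 693 and 0, and Sult1c1 at 559 and 0. In the opposite direction 2 of 20 members were at 500 or more in EGFP and at or under the floor in Tomato, beside 6.79% of 3460 protein-coding genes.

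Aldh1a1, an enzyme that makes retinoic acid, was at 23075 normalized counts in tracheal Tomato cells and 55 in EGFP cells. It was 420-fold lower in EGFP (95% interval 302 to 609). Per kb of exon, Aldh3a1 and Aldh1a1 were the highest aldehyde dehydrogenases of tracheal Tomato cells, with 42.6% and 36.3% of the summed Aldh level. In the EGFP cells Aldh3a1 was at 0, while Aldh1a1, at 55, was still detected above the floor of 4.83.

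Several members with large decreases were still detected in tracheal EGFP cells, at percentages within those of the club cell genes given above. Cyp2f2 was at 2.65% of its Tomato level (37.8-fold lower, 95% interval 36.8 to 38.8), Cyp4b1 at 2.29%, Ces1d at 2.96%, Gsto1 at 3.06%, Cyp2a5 at 5.07%, Sult1d1 at 6.3% and Gstm1 at 7.26%. By comparison, Gsta4 was at 1.23%, Gsta3 at 1.18% and Aldh1a1 at 0.238%, below all 6 club cell genes detected. Genes listed for other cell types lay in the same range. Basal cell genes were at 0.6% (Krt5), 1.33% (Krt15), 2.44% (Pdpn) and 0 (Krt14 and Trp63). Lyz2 of myeloid cells was at 1.32% and Dcn of fibroblasts at 2.29%. The percentages therefore do not single out club cells, and the part of RNA from club or other cells in these levels was not tested.

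**Figure D3:**
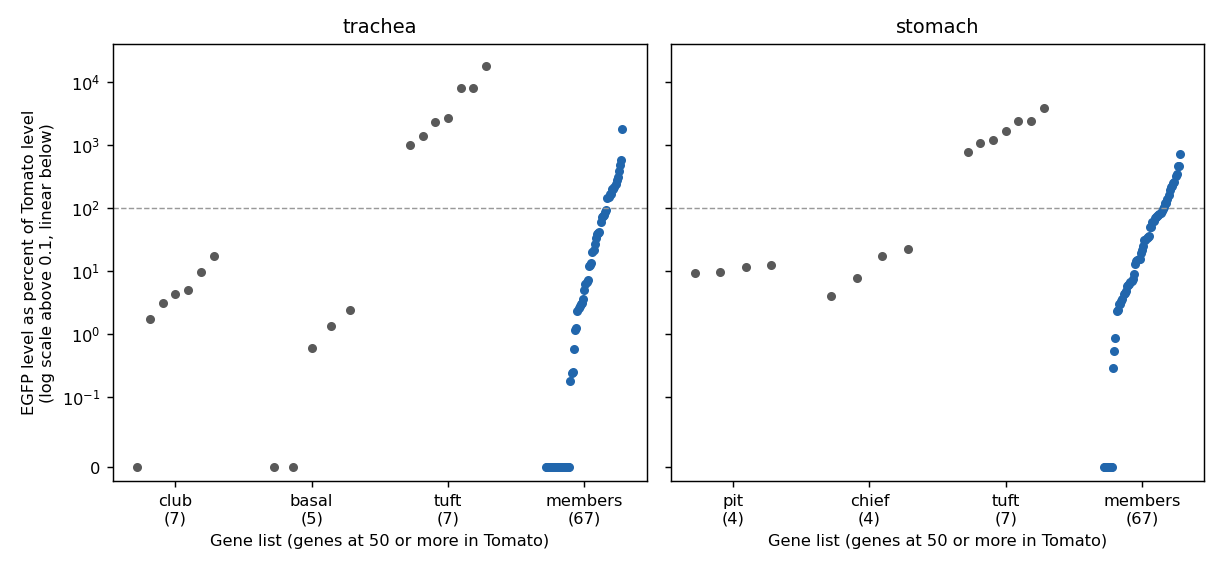
Level in EGFP-positive cells as a percentage of the level in Tomato-positive cells of the same tissue, for marker genes (grey) and members (blue) at 50 or more in Tomato, on a scale that is logarithmic above 0.1% and linear below, with the number of genes in parentheses and the dashed line at 100%. Genes are spread sideways in order of their value. Of 67 members in trachea 21 were at 0, 16 above 0 and under 10%, 16 from 10% to under 100%, and 14 at 100% or more, whereas in stomach these numbers were 8, 19, 25 and 15 of 67.

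The 7 members called higher in tracheal EGFP cells came from different families. Cyp2g1 (chr7:26808892-26821205), a P450 known from the olfactory mucosa, was at 642 normalized counts in tracheal EGFP and 0 in the other libraries, at least 265-fold higher than in tracheal Tomato. Cyp7b1, which hydroxylates oxysterols, was at 583 in tracheal EGFP, 0 in tracheal Tomato and gastric EGFP, and 19 in gastric Tomato. Sult4a1, a sulfotransferase known from brain, was at 259 in tracheal EGFP and 0 elsewhere. All 3 met the level for membership in tracheal EGFP only. That they were highest there follows from this choice and is not a finding.

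The carboxylesterase Ces2f was at 1802 in tracheal EGFP and 101 in tracheal Tomato, 17.8-fold higher (95% interval 14.8 to 21.6), and at 0 in both gastric libraries. Gstm7 was at 361 and 32, 11.3-fold higher (7.93 to 16), Cyp4f13, of a subfamily that hydroxylates leukotrienes and fatty acids, at 944 and 161, 5.86-fold higher (4.98 to 6.92), and Aldh9a1, an enzyme of carnitine synthesis, at 3478 and 714, 4.87-fold higher (4.5 to 5.27). Members under the 4-fold limit but above their Tomato level included Gstm4, at 385 and 100, Cyp2j9, at 251 and 82, Cyp4v3, a fatty acid hydroxylase, at 417 and 148, and Cyp2j6, at 2373 and 1428. All but Cyp2j9 of these 4 were chosen after their values were seen.

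Gastric EGFP-positive cells showed a smaller median shift than tracheal ones. The tracheal EGFP library had fewer reads (an estimated 6200000 beside 17300000) and more members at 0 (43 beside 25). How far this sets the difference was not tested. Of 73 members tested in stomach, 34 (46.6%) were called lower than in Tomato, where 22.6% of 10374 protein-coding genes were. In the other direction 8 (11%) were called higher, where 12.3% of genes were. The median log2(EGFP/Tomato) was -1.67 over members and -0.21 over all genes. P450 families 1 to 3 were lower in 9 of 11 cases and Gsta in 3 of 4. None of the 36 members at 500 or more in gastric Tomato was at or under the floor in EGFP, beside 2.65% of 3438 genes, and none of 25 was lacking in Tomato, beside 0.442% of 3396.

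Among the members that were lower, Aldh3a1 was at 7468 normalized counts in gastric Tomato and 568 in EGFP, 13.1-fold lower (95% interval 12.2 to 14.2). Aldh1a7 was at 858 and 20, Cyp2s1 at 3451 and 212, Cyp3a13 at 1782 and 86, and Ugt2b34 at 2232 and 99. These 5 were also among the members lower in tracheal EGFP cells. Gsta3 was at 3146 and 96, Gstm1 at 9555 and 867, and Ces2g at 1043 and 62, each lower in both tissues. Those at 0 in gastric EGFP included Cyp2c44, from 354 in Tomato, and Cyp2u1, a hydroxylase of long-chain fatty acids, from 340. Relative to Tomato, Gstm1 (9.07%) and Aldh3a1 (7.61%) lay under the pit cell genes, and Gstm2 (15.8%), Gsta1 (15.5%), Cyp2c65 (14.8%) and Gsto1 (19.1%) above them, within the range of 4 chief cell genes from 4% to 22.5%.

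The 8 members called higher in gastric EGFP cells were led in level by Aldh2, the mitochondrial enzyme that clears acetaldehyde. Aldh2 (chr5:121566027-121593824) was at 10865 normalized counts in gastric EGFP and 1524 in gastric Tomato, 7.13-fold higher (95% interval 6.79 to 7.48). In trachea it was at 5802 and 2669, 2.17-fold higher (2.07 to 2.28), which is under the limit. Gstm5 was at 1816 in gastric EGFP and 393 in gastric Tomato, 4.62-fold higher (4.18 to 5.1). Aldh4a1, of proline breakdown, was at 367 and 80, but 28.7% of its read-length windows occur in the overlapping gene Gm21969.

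The other 5 were of lower level. Cyp17a1, the steroid 17-alpha-hydroxylase, was at 254 normalized counts in gastric EGFP and 0 in the other 3 libraries. It was at least 104-fold higher than in gastric Tomato. Cyp2d10 was at 101 and 0, but 22.3% of its read-length windows occur in other transcripts, mainly of Cyp2d11. Ugt8a, which makes galactosylceramide, was at 229 and 4, Ces1g at 201 and 2, and Fmo5 at 94 and 16. None of the 8 was called higher in tracheal EGFP cells as well.

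The overlap of calls between tissues was counted for decreases and for increases. Of the members called lower, 17 were so in both tissues, 40.5% of the tracheal and 50% of the gastric list, and for all protein-coding genes these shares were 25% and 34.4%. The 17 included Aldh1a3, Aldh1a7, Aldh3a1, Cyp2f2, Cyp2s1, Cyp3a13, Fmo1, Fmo2, Gsta3, Gstm1, Gstm2, Gsto1 and Ugt2b34. Some of the 17 were little above the limit of 50 in a Tomato library. In gastric Tomato these were Fmo2 (59), Fmo1 (60), Cyp2d22 (60), Cyp2f2 (69) and Aldh1a3 (82). In tracheal Tomato they were Ces1f (54), Cyp2d22 (57) and Aldh1a3 (74). No member was called higher in both tissues, from lists of 7 and 8. For all protein-coding genes 381 were, 16.6% of the tracheal and 29.9% of the gastric list. Cyp2g1, Cyp7b1, Sult4a1 and Ces2f of the tracheal list stayed under 50 in both gastric libraries. Cyp17a1, Cyp2d10, Ces1g and Ugt8a of the gastric list did so in both tracheal libraries. These members could not be called in both tissues, so the lack of overlap cannot be set against these shares. Fmo5 was called in opposite directions.

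**Figure D4:**
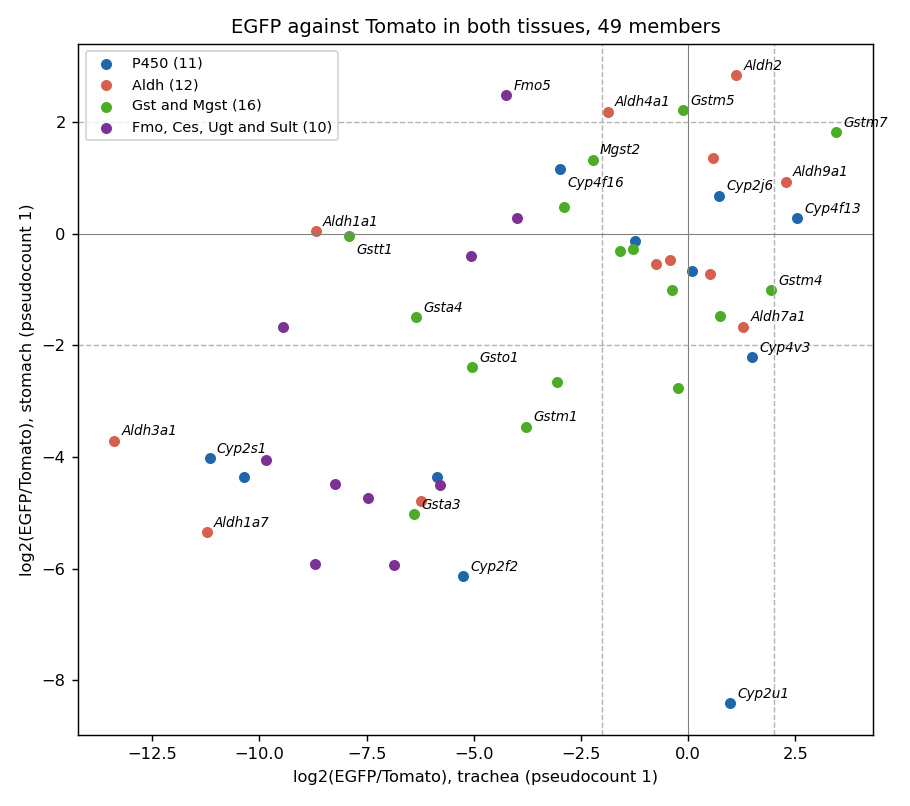
log2((EGFP + 1)/(Tomato + 1)) in trachea (horizontal axis) and stomach (vertical axis) of the 49 members tested in both tissues, coloured by class with the number of genes in parentheses, and with dashed lines at the 4-fold limit. Of these, 28 lay below 0 in both tissues, 6 above 0 in both, 8 below in trachea only and 7 below in stomach only. Gstm7 (3.46 and 1.81) and Aldh2 (1.12 and 2.83) lay above 0 in both.

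The aldehyde dehydrogenases show how the sorts parted within a family. Per kb of exon, Aldh2 and Aldh9a1 ranked highest in both EGFP libraries, with 41.5% and 37.7% of the summed Aldh level in trachea and 46.9% and 15.8% in stomach. In both Tomato libraries Aldh3a1 ranked highest, with 42.6% in trachea and 63.4% in stomach. Aldh3a2, the fatty aldehyde dehydrogenase, was at 984 normalized counts in tracheal EGFP, 653 in tracheal Tomato, 2283 in gastric EGFP and 897 in gastric Tomato, and so was also above Tomato in both tissues without being called. Aldh1l1, a folate enzyme, and Aldh1b1, a mitochondrial relative of Aldh2, were gastric: Aldh1l1 was at 1362 in EGFP and 621 in Tomato, Aldh1b1 at 278 and 85, and both were at 0 in both tracheal libraries.

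Aldh1a1 and Aldh1a7, neighbours on chromosome 19 with the promoters shown above, did not follow the same pattern. In trachea both were far higher in Tomato. In stomach Aldh1a1 was at 719 normalized counts in EGFP and 698 in Tomato (ratio 1.03, 95% interval 0.938 to 1.13), while Aldh1a7 was 42.9-fold lower in EGFP (29.4 to 67.8). Only 1.01% and 2.51% of their read-length windows occur in another transcript, mainly of each other. Which Aldh1a1 start was used cannot be told from counts per gene.

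The 7 Gstm genes, which lie side by side on chromosome 3, also parted. Gstm1 was at 35127 normalized counts in tracheal Tomato, 2549 in tracheal EGFP, 9555 in gastric Tomato and 867 in gastric EGFP, and Gstm2 followed it at 16980, 2040, 2306 and 364. Both were called lower in EGFP cells of both tissues. Beyond Gstm1 at the same end of the cluster, Gstm4 was at 100, 385, 170 and 84 in the same order, above Tomato in trachea and below it in stomach. Toward the other end, Gstm7 was at 32, 361, 219 and 769, above Tomato in both tissues, and Gstm5 at 510, 470, 393 and 1816. Gstm3 and Gstm6 were at 50 or more only in gastric Tomato, at 374 and 274. Of Gstm3's read-length windows, 21.6% occur in other transcripts. Gstm1 held 20% of the summed Gst and Mgst level per kb in tracheal EGFP and Mgst3, a microsomal transferase, 35.4% in gastric EGFP.

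**Figure D5:**
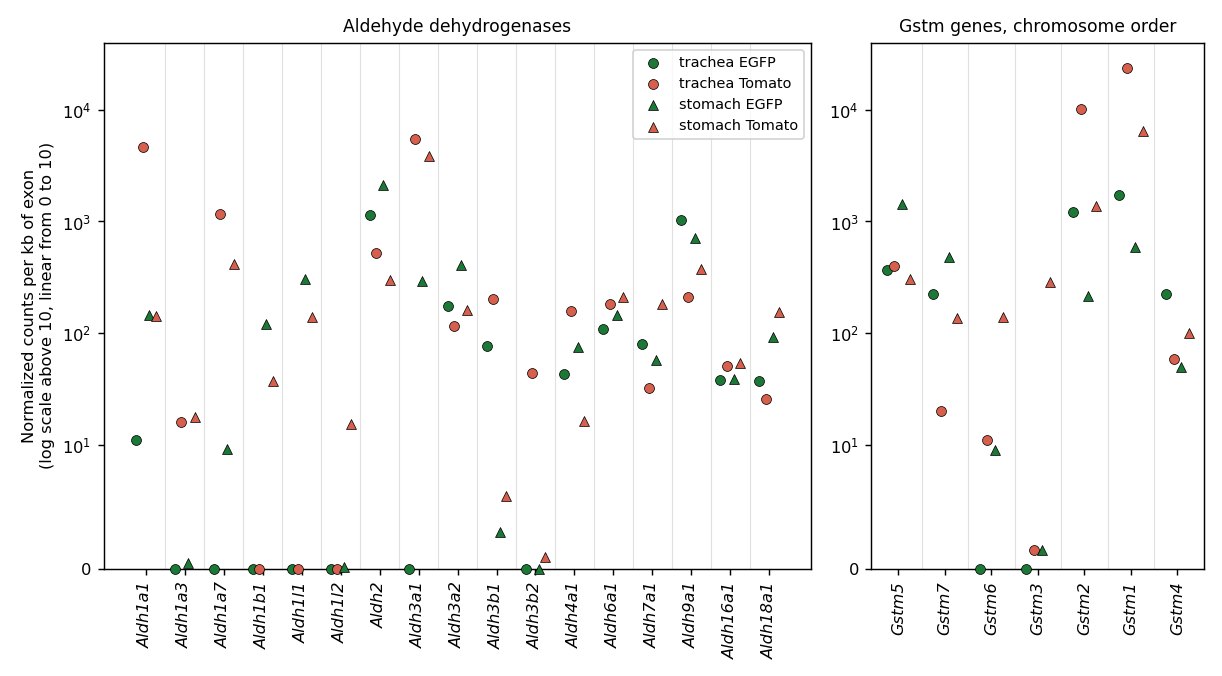
Level per kb of exon of the 17 aldehyde dehydrogenases (left) and of the 7 Gstm genes in chromosome order (right) in each library, on a scale that is logarithmic above 10 and linear from 0 to 10. Circles are trachea and triangles stomach, green is EGFP and red is Tomato. Aldh2 and Aldh9a1 lay above Tomato in EGFP of both tissues (Aldh2 at 1132 and 521 in trachea and 2120 and 297 in stomach), and Aldh3a1 below (0 and 5493, 292 and 3846).

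Other neighbours parted in the same way. On chromosome 8, Ces2f lies next to Ces2g: in trachea Ces2f was at 1802 in EGFP and 101 in Tomato, and Ces2g at 0 and 915. On chromosome 7, Cyp2g1 lies near Cyp2a5: Cyp2g1 was at 642 and 0, and Cyp2a5 at 372 and 7344. Of Cyp2a5's read-length windows, 22.3% occur in other transcripts, mainly Cyp2a4. On chromosome 11, Aldh3a1 and Aldh3a2 are neighbours whose log2(EGFP/Tomato) lay on opposite sides of 0 in both tissues, at -13.38 and 0.59 in trachea and -3.71 and 1.35 in stomach.

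Several members of lower level remain. Cyp4a12b, a hydroxylase of arachidonic acid, was at 1403 normalized counts in tracheal Tomato, 95 in tracheal EGFP and 0 in both gastric libraries, and 41.3% of its read-length windows occur in other transcripts. Among the members highest in gastric Tomato were Ces1f (702), Sult2b1, a cholesterol sulfotransferase (503), Ugt2b35 (347), Cyp4f17 (296) and Gsta2 (207). All of these were at 30 or less in gastric EGFP and at 0 in tracheal EGFP. Of Gsta2's windows, 36.6% occur in other transcripts, mainly of Gsta1. Of the 38 members that the naming rule did not reach, none exceeded 2444 in gastric Tomato, 3332 in gastric EGFP or 2373 in tracheal EGFP, and in tracheal Tomato Aldh1a1 was the highest of them. They included Cyp39a1, an oxysterol hydroxylase, at 987 in tracheal EGFP, 2350 in tracheal Tomato, 329 in gastric EGFP and 362 in gastric Tomato, and Ugt1a7c, at 127 in gastric Tomato and 7 or less elsewhere, of whose windows 52.5% occur in other transcripts of its locus. Only 7 of the 96 members were called in none of the 4 comparisons: Aldh16a1, Aldh3a2, Aldh6a1, Cyp2j6, Gstp1, Gstp2 and Mgst1, which lay between 64 and 7403 in every library.

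The EGFP-positive cells of trachea and stomach were also compared with each other. Of 66 members tested, 19 (28.8%) were called higher in trachea, where 18.3% of 9469 protein-coding genes were, and 23 (34.8%) higher in stomach, where 27% were. Among the largest differences, some lay the same way in the Tomato cells and others did not. Sult1c2 was at 11266 normalized counts in gastric and 2 in tracheal EGFP, Gstt1 at 2617 and 0, Gsta1 at 1485 and 0 and Aldh1l1 at 1362 and 0. In the other direction Cyp2f2 was at 8937 in tracheal and 0 in gastric EGFP, Ces2f at 1802 and 0, Ces1e, of which tracheal Tomato held 777, at 556 and 0, and Cyp2u1 at 330 and 0, although its Tomato level was lower in trachea (167) than in stomach (340). Aldh3a1 was at 0 in tracheal and 568 in gastric EGFP but at 10667 and 7468 in Tomato, and Cyp2g1 and Cyp7b1, described above, were at 0 in tracheal Tomato. Gsta4 was at 312 in tracheal and 9588 in gastric EGFP, 30.7-fold lower in trachea (95% interval 26.6 to 35.6), although the Tomato libraries were close. Levels near each other in both EGFP libraries included those of Gstt2 (52 and 51), Gsta3 (113 and 96), Gstp2 (108 and 88), Aldh9a1 (3478 and 2413), Gstp1 (1072 and 1205), Mgst1 (2475 and 1698) and Aldh16a1 (214 and 219). Shared sequence limits Gstp1 and Gstp2, of whose windows 29.2% and 50.1% occur in other transcripts.

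Partner genes of the same pathways were taken from a list of 71, which holds electron donors, alcohol dehydrogenases, carbonyl reductases, glutathione and cofactor synthesis, transporters and regulators. In trachea 6 of 52 tested were called higher in EGFP cells and 30 lower, where 23.4% and 32.7% of protein-coding genes were, with a median log2(EGFP/Tomato) of -2.64 beside -0.37 over all genes. In stomach 2 of 53 were higher and 20 lower, where 12.3% and 22.6% of genes were, with a median of -1.26 beside -0.21. Por, the reductase that feeds electrons to P450 enzymes, was at 1325 normalized counts in EGFP and 8948 in Tomato in trachea, and 638 and 1336 in stomach. Ugdh, which makes the glucuronic acid donor of Ugt enzymes, was at 2 and 2593 in trachea and 1124 and 4902 in stomach. The catalytic and modifier subunits of glutamate-cysteine ligase, the entry step of glutathione synthesis, parted in trachea: Gclc was at 2568 in EGFP and 410 in Tomato, and Gclm at 0 and 3634. Ahr, the receptor behind the GCGTG element, was at 2 and 208 in trachea.

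Adh1, the alcohol dehydrogenase that forms the aldehydes on which Aldh2 acts, was at 126534 normalized counts in gastric EGFP cells and 7840 in gastric Tomato cells, 16.1-fold higher (95% interval 15.8 to 16.5). In trachea it was at 140 in EGFP and 6058 in Tomato, 43.3-fold lower (35 to 54.1). Adh7, the stomach's retinol and ethanol dehydrogenase, was lower in EGFP cells of both tissues, at 727 and 6086 in stomach and 604 and 16529 in trachea. Adh1 and Aldh2 were thus both higher in gastric EGFP cells, while in tracheal EGFP cells only Aldh2 was above its Tomato level.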

How the data were processed

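Total RNA of sorted cells was made into full-length cDNA (SMART-Seq v4) without molecular identifiers and sequenced as single reads. Per the submitters' processing notes and the study's methods, reads were trimmed, aligned with STAR 2.4.0a to GRCm38 and assigned to exons with featureCounts 1.4.5-p1, and those mapping to several places or overlapping several genes were dropped. The deposited values are a score: normalized counts that the authors rounded to whole numbers, with a normalization not given in the sources used here. Discarding shared reads lowers the level of near-identical genes.

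Libraries were grouped by title. The worth of 1 read in each library was estimated from which whole numbers occur, giving estimated reads, a floor of 3 reads and exact binomial 95% intervals (Python 3.11.15, pandas 2.3.3, scipy 1.17.1). No comparison within a tissue or within a sort has replicates, and none was tested. A fit of sort and tissue over the 4 libraries, which would leave 1 residual degree of freedom, was not run. log2 ratios used a pseudocount of 1, and a gene was called at 4-fold or more with 50 or more normalized counts in the higher library. The background is the same rule over all protein-coding genes. Ratios printed as fold differences are of normalized counts without pseudocount, and at least N-fold means the higher level over the floor of the other library. Levels per kb used the merged exons of GENCODE M21 (GRCm38), which held all 96 members and 48349 of 48709 identifiers. The share of read-length windows of 75 bases found in transcripts of other genes was counted in the same annotation. Promoters are from RefSeq (GRCm38.p6). Calls, read worth and intervals were tested on simulated data.

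Members, lists and rules were chosen with earlier results of these data known. Named members, 58 in all, are those among the 8 highest per kb of a library, among the 10 called members with the largest or smallest log2 ratio of a comparison at 200 or more, called higher in EGFP in either tissue, at 500 or more in Tomato and at or under the floor in EGFP, or called in opposite directions in the tissues. Other members named were chosen after their values were seen, Aldh1a1 among them. The level of 1 member is not reported here by gene, and it stays in the counts and sums.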

Additional observations from a re-analysis of the deposited data

Results flagged for a closer look

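For 7 members, log2(EGFP/Tomato) was at least 1 in size (2-fold) in both tissues and of opposite sign. With 1 library per group the difference between tissues was not tested. Lower in EGFP cells of trachea and higher in those of stomach were Fmo5 (-4.25 and 2.48), Cyp4f16 (-2.99 and 1.15), Mgst2 (-2.23 and 1.32) and Aldh4a1 (-1.87 and 2.18). Higher in trachea and lower in stomach were Gstm4 (1.93 and -1.01), Cyp4v3 (1.49 and -2.21) and Aldh7a1 (1.29 and -1.67). Mgst2, a microsomal transferase that can form leukotriene C4, was the highest of the 7 and lay at 1897 normalized counts in tracheal EGFP, 8911 in tracheal Tomato, 3332 in gastric EGFP and 1335 in gastric Tomato. Fmo5 was at 2, 56, 94 and 16 in the same order.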

How the results depend on the processing

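No paired analysis was possible because each comparison is made within 1 tissue or 1 sort and holds 1 library per group, and for the same reason no library could be left out. A contrast of the sorts paired over both tissues was not run. Of the alternatives to the 10 counts of members, 59 of 68 stayed within 1.5 times the count. A minimum of 500 normalized counts, which leaves fewer genes, gave 2 members higher and 14 lower in gastric EGFP cells, 11 lower in trachea than in stomach among Tomato cells, and 6 higher and 10 lower in trachea among EGFP cells. Calling from 2-fold on gave 13 members higher in EGFP cells of trachea and 14 of stomach. In alternatives chosen after seeing the data, 7 members were at 1000 or more in tracheal Tomato and at or under the floor in EGFP, and 4 were at 200 or more in gastric Tomato and at or under the floor. In 1096 alternatives to 238 ratios of named members and family sums, 185 values moved by more than counting error, 80 of them with a pseudocount of 10. No called member changed sign, but these settings could not have shown otherwise. A pseudocount or a minimum cannot turn a ratio over, and the scaling factors, from 0.873 to 1.35, were small beside the 4-fold limit. Family sums carry no call, and changes of their sign were not counted. Scaling libraries to the same total moved the median log2(EGFP/Tomato) of all genes in trachea from -0.37 to 0.27 and that of members from -3.83 to -3.21, with 10 members called higher and 39 lower. Tracheal EGFP, with the fewest reads, limits what could be detected.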
